A study of Mus musculus with 6 samples.

Results

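The genes described here are 32 genes of the lysosome, chosen by name as lysosomal enzymes and membrane proteins, of 32285 genes counted. All 32 were found by symbol in the gene lists. They comprise 9 membrane proteins, 4 parts of the proton pump, 8 glycosidases, 6 hydrolases of lipids and proteins, 4 soluble activators and carriers, and the regulator Tfeb. They were measured in single-cell transcriptomes of orthotopic pancreatic tumours grown from the mouse pancreatic cancer line KPC in C57BL/6 mice of 6 to 8 weeks and were harvested 4 weeks after injection. By the labels, the KPC cells carried an empty vector (OE-Vector) or a construct that overexpresses Mlkl, the pseudokinase which ruptures the plasma membrane in necroptosis (OE-MLKL); every group shared the same cell line and host, and the construct was in the injected cancer cells, not in the macrophages, neutrophils or other host cells. Of 3 samples in each group, those of OE-Vector 1 and OE-MLKL 1, 2 and 3 entered the analysis, and the matrices of OE-Vector 2 and 3 were not analysed here. Per the study's methods each library is a separate tumour, from 3 mice per group.

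Lysosomes are acidic organelles in which material from phagocytosis, endocytosis and autophagy is broken down. A proton pump, the V-type ATPase, acidifies the lumen, soluble hydrolases work at that low pH, and heavily glycosylated proteins such as Lamp1 line the inside of the membrane. Tfeb and its relatives switch many of these genes on together through a short DNA element. Macrophages, which clear dead cells and debris, are known for a large lysosomal compartment, and neutrophils for granules that hold several of the same enzymes.

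Cells were sorted into classes by markers that include none of the 32 genes. This gave 9885 macrophages, 24607 neutrophils, 3080 T cells, 21709 cancer cells, 247 monocytes and 339 dendritic cells, of 74545 cells in all, whereas the labels name the cell type only as pancreatic cancer cells. UMIs, the molecular tags that count each captured transcript once, were summed per class and library, and levels are given as CPM, UMIs per 1000000 UMIs of that class in that library. Values for the 4 libraries are always listed in the order OE-Vector 1, OE-MLKL 1, OE-MLKL 2 and OE-MLKL 3, and gene positions are those of GENCODE vM21 on mm10. The 8 macrophage markers, by which the cells were sorted, summed to between 13311 and 15102 CPM in macrophages. The same sum lay between 285 and 746 CPM in neutrophils and between 94.2 and 313 CPM in cancer cells, with OE-MLKL 3 highest in both. These sums are fixed in part by the sort and are no independent check of the classes. No marker of the macrophage list was at 0 in any of these classes, and the part of this carried-over RNA in the results was not tested. A cell barcode was found in more than 1 library for 1215 of the 74545 cells. Mlkl in cancer cells stood at 16.4, 8.50, 12.8 and 19.7 CPM. The OE-MLKL label did not go with more Mlkl counted, so the labels are quoted as labels wherever a direction is drawn from them. Whether the 3′ chemistry counts transcripts of the construct as Mlkl was not tested.

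The DNA element through which Tfeb acts has the letters CACGTG at its core. The promoter windows of RefSeq, 250 bases before and 50 after each annotated start on GRCm38.p6, were available for 29 of the 32 genes. The core was found, on either strand since it reads the same on both, in 8 of these genes (27.6%), against 8.09% of all 27025 genes in the table. Other lysosomal genes, listed further on, held it at a like rate, 16 of 54 (29.6%). The longer forms TCACGTG or CACGTGA, each of which contains the core, were in the same 8 genes and in 4.29% of all genes. The stretches that hold the core are shown 5′ to 3′ in the direction of transcription, with the core in capitals, since they are the letters these 8 genes share. They lie at chr8:13159080-13159171 (Lamp1, plus strand), chr8:3500428-3500499 (Mcoln1, plus strand), chr8:105566042-105566087 (Atp6v0d1, minus strand), chr16:44139365-44139410 (Atp6v1a, minus strand), chrX:134601174-134601252 (Gla, minus strand), chr9:114401010-114401055 (Glb1, plus strand), chr11:119267803-119267848 (Gaa, plus strand), chr12:102439116-102439161 (Lgmn, minus strand).
Lamp1: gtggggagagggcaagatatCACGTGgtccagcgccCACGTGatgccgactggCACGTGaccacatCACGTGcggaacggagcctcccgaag
Mcoln1: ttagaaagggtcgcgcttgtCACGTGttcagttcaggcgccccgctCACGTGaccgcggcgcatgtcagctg
Atp6v0d1: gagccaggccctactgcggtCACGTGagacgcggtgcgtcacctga
Atp6v1a: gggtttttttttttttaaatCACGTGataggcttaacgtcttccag
Gla: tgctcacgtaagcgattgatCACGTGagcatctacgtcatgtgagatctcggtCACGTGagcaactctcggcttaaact
Glb1: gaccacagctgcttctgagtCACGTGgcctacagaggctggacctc
Gaa: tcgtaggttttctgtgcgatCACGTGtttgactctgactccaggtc
Lgmn: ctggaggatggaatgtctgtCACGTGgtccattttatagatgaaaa

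Lamp1 held 4 cores between 61 and 15 bases before its start, more than any other member. Mcoln1 and Gla held 2 cores each, and the other 5 genes 1 each. The cores of Atp6v0d1, Glb1 and Lgmn began 3, 48 and 49 bases before a start, and those of Atp6v1a, Gaa and Gla lay more than 100 bases before it. All these distances are from starts annotated by RefSeq. The cores of Lgmn and Atp6v1a, and 1 of the 2 of Mcoln1, lie inside the GENCODE spans of these genes. In the comparison of macrophages with cancer cells described further on, the median log2 fold change was 1.73 over the 8 genes with a core and 2.08 over the 21 with none in the window; against neutrophils the medians were 1.20 and 0.65. These are descriptions, and a match of letters does not show that a factor binds.

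Summed together, the 32 genes took the largest share of UMIs in macrophages. The share was 1.82, 1.87, 1.78 and 1.73% of macrophage UMIs, a mean of 1.80% ± 0.0587 (SD, n = 4). Monocytes followed with 1.01% ± 0.0917, dendritic cells with 0.711% ± 0.153, neutrophils with 0.614% ± 0.0889, cancer cells with 0.520% ± 0.0277 and T cells with 0.253% ± 0.0412. The lowest macrophage library lay above the highest library of every other class. The 4 libraries of dendritic cells overlapped in range with those of neutrophils, and neutrophils with cancer cells. Within each library, dendritic cells were nevertheless above neutrophils, and neutrophils above cancer cells. Dendritic cells held 0.776, 0.561, 0.611 and 0.895%, neutrophils 0.724, 0.525, 0.562 and 0.646%, and cancer cells 0.560, 0.514, 0.507 and 0.497%. The order of these shares was not tested. In barcodes of at most 100 UMIs, which hold free RNA of lysed cells, the share was 0.702% ± 0.0691. The free RNA share was thus above that of neutrophils, cancer cells and T cells by mean.

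**Figure D1:**
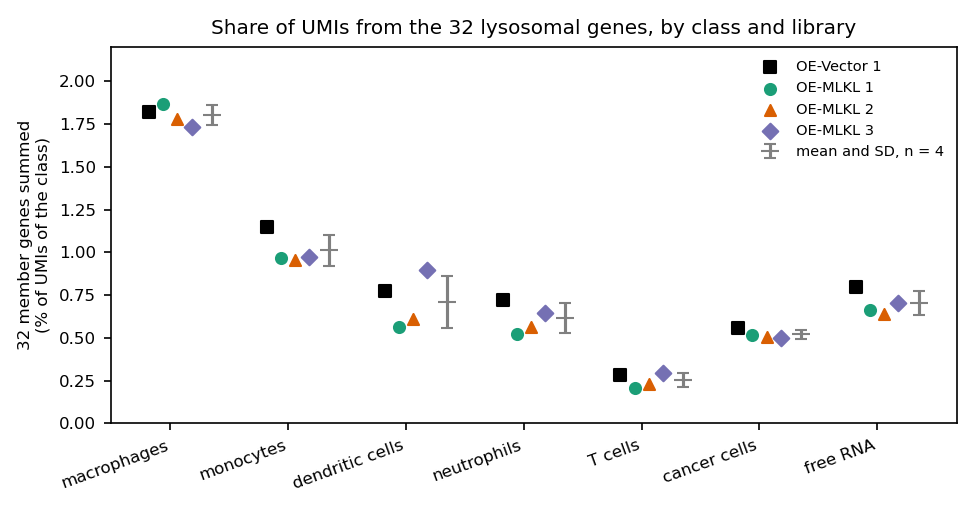
The vertical axis gives the share of UMIs of a class that came from the 32 genes together, in percent, for 6 cell classes and for free RNA on the horizontal axis; symbols are the 4 libraries and grey bars the mean with its SD. Macrophages lie between 1.73% and 1.87%, above every library of the other classes.

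By mean level, 21 of the 32 genes were highest in macrophages, and 7 of these (Lamp1, Cd68, Asah1, Lgmn, Tpp1, Psap and Grn) had every macrophage library above every library of the other 5 classes. In cells thinned to at most 1000 UMIs Cd68 and Psap were no longer clear of the other classes, Npc1 was highest in monocytes and Atp6v0d1 in macrophages. Cancer cells led for 4 genes (Cd63, Laptm4a, Gaa and Lipa), neutrophils for 3 (Gla, Neu1 and Tfeb), dendritic cells for 2 (Fuca1 and Ppt1) and monocytes for 2 (Lamp2 and Atp6v0d1). Between neighbours in the order of the 6 classes, the ranges of the 4 libraries overlapped for 112 pairs and did not for 48. Beside free RNA, 27 genes were above the free RNA level in macrophages in all 4 libraries. In T cells 29 of the 32 and in cancer cells 23 of the 32 lay below it in all 4 libraries, as did 17 in dendritic cells and 15 in neutrophils, where 6 and 13 lay above it. Levels below free RNA are not told apart from background here.

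**Figure D2:**
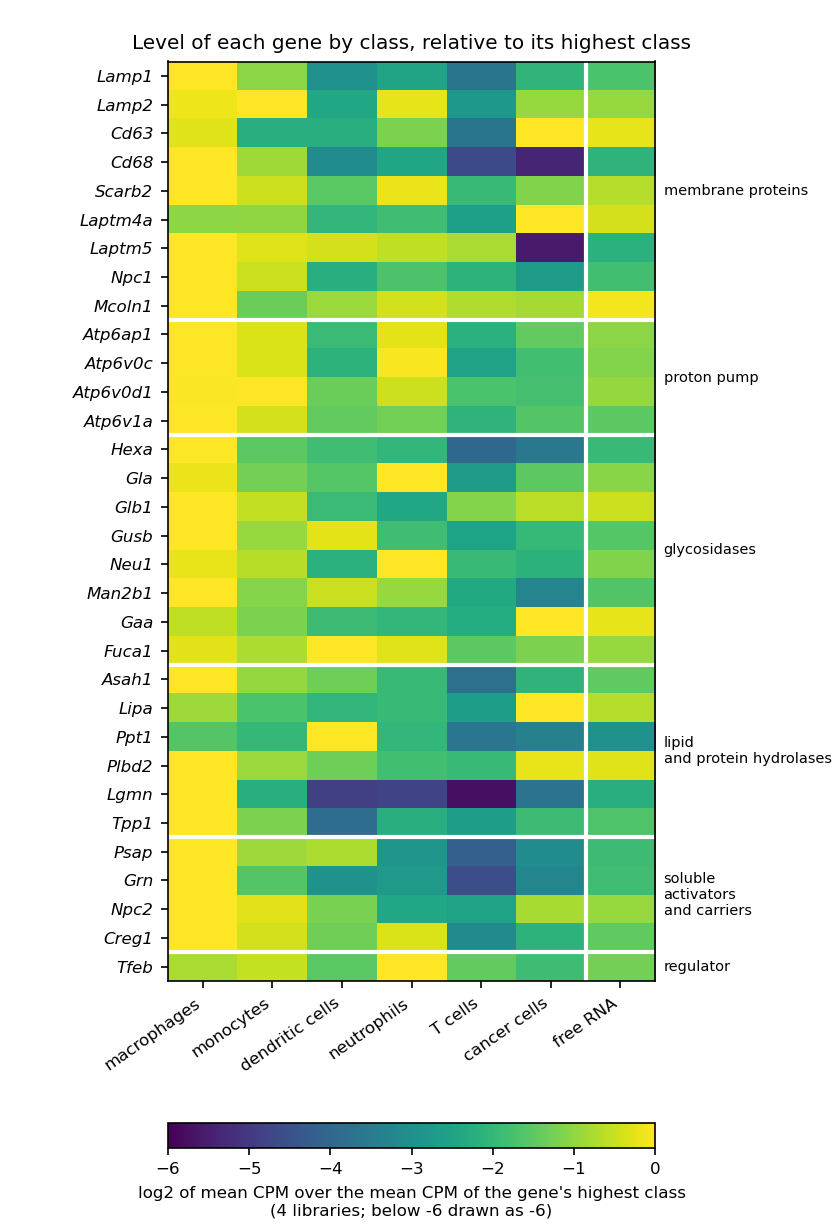
Rows are the 32 genes grouped by role, columns the 6 classes and free RNA; the colour is the log2 ratio of the mean CPM over 4 libraries to that of the gene's highest class, so that 0 marks the highest class. The brightest cell of a row is in the macrophage column for 21 genes, whereas Ppt1 is brightest in dendritic cells, Tfeb in neutrophils and Lipa in cancer cells.

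Among the membrane proteins, Lamp1 (chromosome 8, 13159161 to 13175338, plus strand), the main glycoprotein of the lysosomal membrane, measured 1109.6, 1339, 1306 and 1149.6 CPM in macrophages. Its monocyte level was 596 ± 41.4 CPM (SD, n = 4), its cancer cell level 293 ± 16.0 CPM and its neutrophil level 217 ± 11.2 CPM. These 4 classes did not overlap between neighbours. Cd68 (chromosome 11, 69664213 to 69666153, minus strand), a scavenging glycoprotein widely used to mark macrophages though not used to sort them here, gave 423, 372, 444 and 284 CPM in macrophages and 10.6, 7.10, 7.61 and 11.5 CPM in cancer cells. Cancer cells stayed below the free RNA level of 88.5 CPM in every library. Laptm5, a lysosomal transmembrane protein of blood cells, had mean levels of 1187 CPM in macrophages, 972 in monocytes, 906 in dendritic cells, 795 in neutrophils and 697 in T cells, and 24.9 in cancer cells. It was the only member that exceeded free RNA in T cells in all 4 libraries.

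Its relative Laptm4a was placed the other way. Cancer cells held 570.4, 622, 524 and 522 CPM and macrophages 259.6, 276, 281 and 281 CPM, with every cancer cell library above every library of the other classes. Cd63, a tetraspanin of late endosomes and secreted vesicles, stood at 923 ± 167 CPM in cancer cells and 758 ± 124 CPM in macrophages, and these ranges overlapped. Lamp2, which takes part in the fusion of autophagosomes, was within a narrow range in monocytes (441 ± 67.8 CPM), macrophages (399 ± 27.4 CPM) and neutrophils (377 ± 88.6 CPM). Scarb2, the carrier of glucocerebrosidase, was likewise similar in macrophages (148 ± 15.7 CPM) and neutrophils (132 ± 31.3 CPM), with overlapping libraries. Npc1, which exports cholesterol, had 126 ± 20.8 CPM in macrophages and 19.2 ± 4.41 CPM in cancer cells. Mcoln1, a calcium channel of the lysosome, was low everywhere, from 7.41 CPM in monocytes to 19.0 CPM in macrophages.

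The proton pump genes other than Atp6v1a had overlapping libraries in macrophages and neutrophils. All 4 were higher in macrophages than in cancer cells, dendritic cells and T cells in the tests described further on. Atp6v0c, which forms the ring in the membrane that carries protons, measured 1137, 1255, 1332 and 1001 CPM in macrophages and 1765, 902, 910.4 and 929 CPM in neutrophils. The neutrophils of OE-Vector 1 stood above all macrophage libraries and the other 3 neutrophil libraries below them. Atp6v0d1, another membrane-sector subunit, had 144 ± 26.6 CPM in macrophages, 147 ± 26.8 in monocytes and 106 ± 6.25 in neutrophils. Atp6ap1, an accessory subunit, was at 236 ± 16.4 and 198 ± 31.4 CPM in macrophages and neutrophils. Atp6v1a, the subunit that splits ATP, was 224 ± 35.2 CPM in macrophages against 92.6 ± 23.6 CPM in neutrophils, and here the libraries did not overlap.

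Of the glycosidases, Hexa (chromosome 9, 59539540 to 59565109, plus strand), a subunit of the hexosaminidase that degrades gangliosides, was at 616, 201, 289 and 409.8 CPM in macrophages, the widest spread between libraries of all members there. Man2b1, which trims mannose from glycoproteins, reached 253, 543, 534 and 374 CPM in macrophages and 283, 348, 177 and 406 CPM in dendritic cells. Gusb, which removes glucuronic acid, was close in the same classes, with 244 ± 32.2 and 206 ± 21.3 CPM. Glb1, the galactosidase used as a stain of senescent cells, had 43.4 ± 10.7 CPM in macrophages and 8.05 ± 1.78 CPM in neutrophils, which did not overlap.

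Gla, which degrades globotriaosylceramide, was highest by mean in neutrophils, but its neutrophil values of 71, 21.5, 17.4 and 51.0 CPM straddled the macrophage values of 36, 40.3, 30.2 and 35.2 CPM. Neu1, a sialidase, was at 87.7 ± 13.8 CPM in neutrophils and 76.0 ± 8.68 CPM in macrophages, with overlap. Gaa, which degrades glycogen, led in cancer cells with 66.1 ± 14.8 CPM against 44.7 ± 3.77 CPM in macrophages. Gaa libraries of the 2 classes overlapped. Fuca1, a fucosidase, varied little between classes, by a factor of 2.85 between dendritic cells (195 CPM) and T cells (68.6 CPM); only Mcoln1, with a factor of 2.56, varied less among the members.

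Among the hydrolases of lipids and proteins, Lgmn (chromosome 12, 102394084 to 102439813, minus strand), legumain, a protease that cuts after asparagine, measured 1488, 2176, 1703 and 1514 CPM in macrophages. Monocytes held 417, 374, 329 and 352 CPM, and dendritic cells, neutrophils and T cells had means of 59.3, 63.4 and 31.7 CPM. Its macrophage mean was 4.67 times the monocyte mean and 54.2 times the T cell mean, the widest range of the 32 genes. Ppt1, which removes palmitate from proteins, was instead highest in dendritic cells, at 548, 194, 287 and 1038 CPM, against 178, 125, 150.5 and 225 CPM in macrophages. OE-MLKL 3 was highest and OE-MLKL 1 lowest in dendritic cells, an order that macrophages and free RNA shared. The markers of dendritic cells also varied between libraries: Xcr1 and Clec9a were highest in OE-MLKL 3, and Ccr7, Fscn1 and Ccl22 in OE-MLKL 2. Flt3 and Zbtb46 were highest in OE-MLKL 1, and Cd209a in OE-Vector 1. The part of the subset makeup in the Ppt1 values was not tested.

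Lipa, the acid lipase that frees cholesterol and fatty acids, was highest in cancer cells with 258, 143, 225 and 242 CPM, whereas macrophages gave 166, 57.8, 86.3 and 161 CPM. OE-MLKL 1 was lowest in both classes, and the ranges overlapped. Tpp1, a tripeptidyl peptidase, was at 209 ± 34.7 CPM in macrophages and 92.5 ± 17.1 CPM in monocytes. Asah1, the acid ceramidase, had 328 ± 37.1 and 169.8 ± 30.7 CPM there. Plbd2, a phospholipase B-like protein, did not separate macrophages (92.3 ± 9.03 CPM) from cancer cells (80.1 ± 17.0 CPM).

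All 4 soluble activators and carriers had their highest mean in macrophages. Psap (chromosome 10, 60277627 to 60302597, plus strand), the precursor of the saposins that present sphingolipids to hydrolases, measured 4578, 3861, 3282 and 3937 CPM in macrophages and 2877, 1512, 1761 and 3274 CPM in dendritic cells. Every macrophage library was above every dendritic cell library, though by a slim margin. Grn (chromosome 11, 102430315 to 102437048, plus strand), progranulin, gave 1568, 2319, 2433 and 2043 CPM in macrophages, with a monocyte mean of 693 CPM and a dendritic cell mean of 274 CPM. Npc2, the partner of Npc1 in cholesterol export, was at 1417 ± 184 CPM in macrophages, 1176 ± 380.3 in monocytes and 824 ± 221 in cancer cells. Creg1, a small secreted glycoprotein of the lysosome, was at 337, 152, 137 and 205 CPM in macrophages and 289.9, 89.1, 123 and 157 CPM in neutrophils, with OE-Vector 1 highest in both. Tfeb (chromosome 17, 47737030 to 47792419, plus strand) had low levels of 24.5, 19.3, 26.2 and 28.7 CPM in macrophages and 59.2, 19.9, 38.1 and 50.4 CPM in neutrophils.

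**Figure D3:**
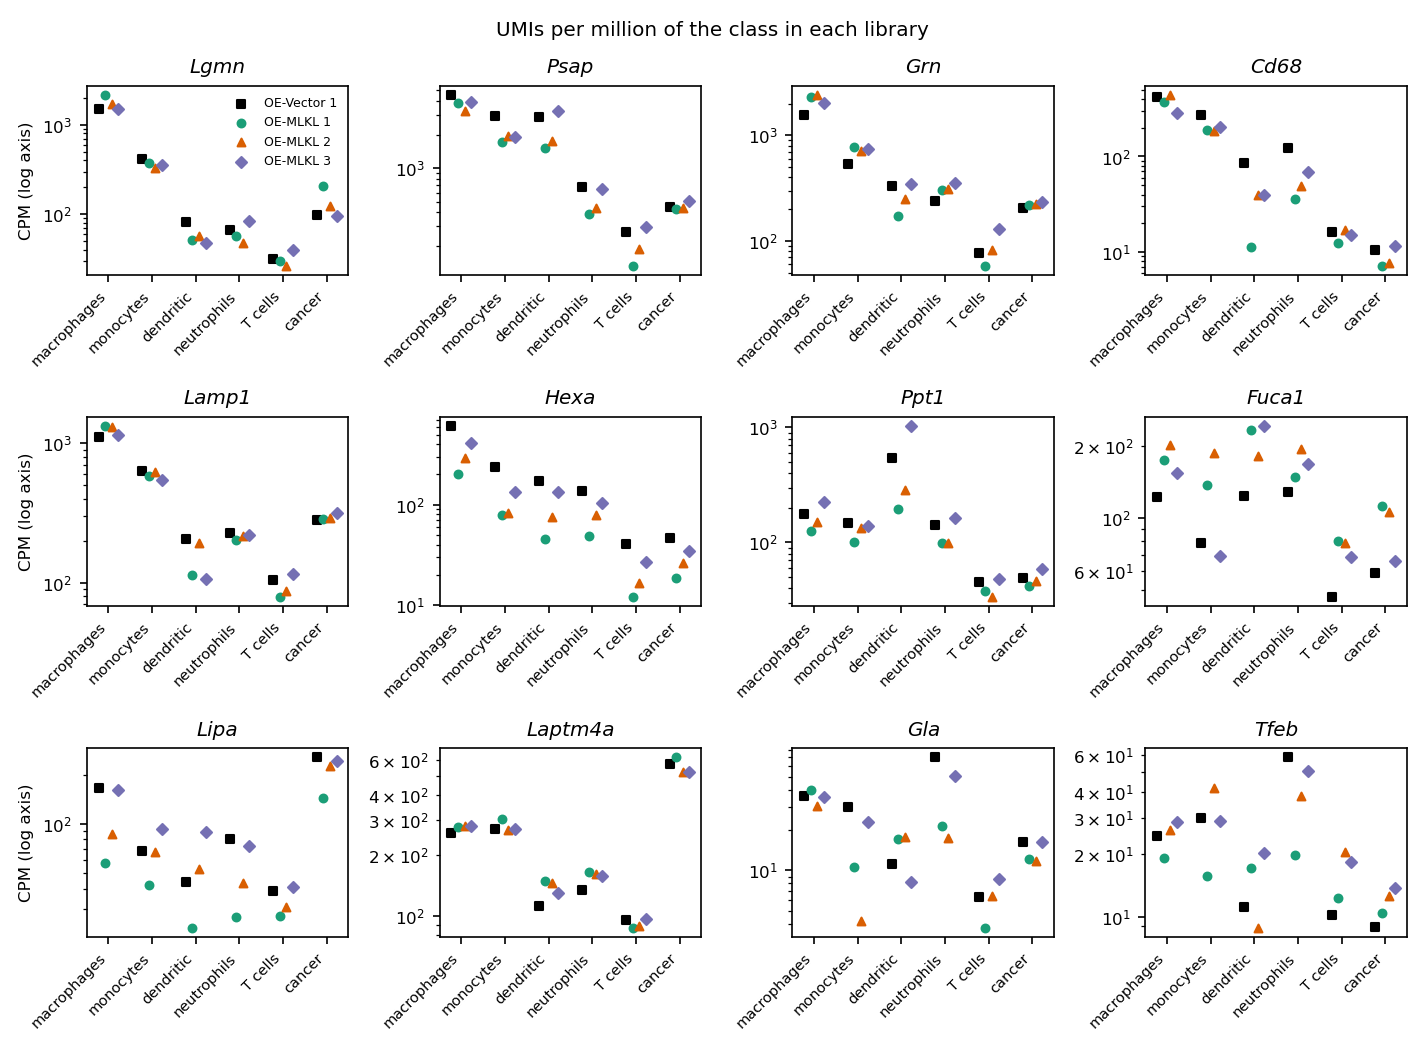
Each panel plots 1 gene, with CPM on a log axis against the 6 classes; symbols are the 4 libraries. Lgmn, Grn, Psap, Cd68 and Lamp1 have all 4 macrophage points at the top, Laptm4a and Lipa rise in cancer cells, Ppt1 in dendritic cells, and Gla and Tfeb have their highest points in neutrophils of OE-Vector 1 and OE-MLKL 3.

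Macrophages were then compared with each other class by the quasi-likelihood test of edgeR with the library as a block, over all genes. Against cancer cells, 28 of the 32 genes were higher in macrophages, 3 were lower (Laptm4a, Lipa and Gaa), and Cd63 did not pass. Over all 16358 genes tested, 32.4% were higher and 36.4% lower, so the share of members called higher is well above the background and the share called lower well below it. The median log2 fold change was 2.02 over the members and -0.07 over all genes. Among membrane proteins 7 of 9 were higher, led by Laptm5 with 6.00 ± 0.27 (log2 ± SE, adjusted p = 9.2e-07), and Cd68 with 5.65 ± 0.22 (adjusted p = 5.3e-07) and Lamp1 with 2.33 ± 0.10 (adjusted p = 8.9e-07) also rose. All 4 pump subunits were higher, Atp6v0c by 2.08 ± 0.10 (adjusted p = 1.1e-06). The glycosidases were led by Hexa (3.82 ± 0.11, adjusted p = 3.7e-07), the other hydrolases by Lgmn (4.04 ± 0.15, adjusted p = 4.4e-07) and the soluble proteins by Grn (3.49 ± 0.13, adjusted p = 4.6e-07). Tfeb was higher by 1.38 ± 0.12 (adjusted p = 2.7e-05). Under library size alone, which moved the median of all genes to -0.34, Cd63 joined the genes lower in macrophages and Plbd2 was no longer called. Without the library block Gaa, Lipa and Plbd2 were not called. The call of Gaa was also lost when OE-Vector 1, OE-MLKL 2 or OE-MLKL 3 was left out, and in cells thinned to at most 1000 UMIs.

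Against T cells all 32 genes were higher in macrophages, where 30.9% of the 13650 genes tested were higher and 30.5% lower. The median was 2.42 over the members and -0.0030 over all genes. Lgmn had the largest change, 5.93 ± 0.17 (adjusted p = 1.2e-07), then Cd68 with 4.83 ± 0.14 (adjusted p = 1.2e-07) and Grn with 4.81 ± 0.22 (adjusted p = 5.8e-07). Hexa led the glycosidases with 4.21 ± 0.11 and Atp6v0c the pump with 2.74 ± 0.12. Lamp1 changed by 3.86 ± 0.15 (adjusted p = 2.7e-07). The smallest changes were those of Mcoln1, Tfeb (0.93 ± 0.18, adjusted p = 0.002) and Laptm5, and the call of Mcoln1 was lost in thinned cells.

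Dendritic cells differed from macrophages in 28 genes that were higher in macrophages and 1, Ppt1, that was lower, against 20.6% and 14.1% of 12657 genes tested. The median was 1.44 over the members and 0.12 over all genes. Ppt1 fell by 1.39 ± 0.19 on the log2 scale (adjusted p = 2.1e-06). Gusb, Man2b1 and Fuca1 did not pass the test. All 9 membrane proteins were higher, led by Lamp1 (3.04 ± 0.17, adjusted p = 3.7e-13) with Cd68 at 2.95 ± 0.21 (adjusted p = 4.6e-11). The pump was led by Atp6v0c (2.16 ± 0.14), the glycosidases by Neu1 (2.11 ± 0.22), the other hydrolases by Lgmn (4.81 ± 0.17) and the soluble proteins by Grn (2.91 ± 0.18), each with an adjusted p of at most 2.1e-08. Tfeb changed by 0.82 ± 0.27 (adjusted p = 0.019). With 30 to 155 dendritic cells per library, counts were sparse in this class, and Tpp1 had no UMI there in OE-MLKL 1. The calls of Tfeb and Mcoln1 were lost with DESeq2, in thinned cells and without OE-Vector 1, OE-MLKL 2 or OE-MLKL 3, and that of Tfeb also without the library block. Laptm5 was not called without the block, OE-Vector 1 or OE-MLKL 2. Psap and Lipa were not called without the block, nor Gla and Glb1 in thinned cells. Man2b1 was called in thinned cells and without the low-count filter, OE-Vector 1 or OE-MLKL 3.

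Against neutrophils, 20 members were higher in macrophages and 2 lower, where the background was 36.0% and 33.9% of 13674 genes tested. The share of members called higher was thus above the background by less than in the comparisons with cancer cells and T cells. The median was 0.81 over the members and 0.01 over all genes. Lgmn (4.59 ± 0.25, adjusted p = 2.3e-06), Psap (2.72 ± 0.17, adjusted p = 4.5e-06), Cd68 (2.40 ± 0.31, adjusted p = 2.0e-04), Lamp1 (2.32 ± 0.15, adjusted p = 5.6e-06) and Glb1 (2.23 ± 0.16, adjusted p = 9.5e-06) led their roles or stood close behind. Of the 4 pump subunits only Atp6v1a passed, with 1.12 ± 0.15 (adjusted p = 2.5e-04). The values of the other 3 were 0.25 ± 0.15 for Atp6v0d1, 0.09 ± 0.13 for Atp6ap1 and -0.05 ± 0.22 for Atp6v0c. Tfeb fell by 0.87 ± 0.21 on the log2 scale in macrophages (adjusted p = 0.0062) and Neu1 by 0.38 ± 0.12 (adjusted p = 0.018). The call of Neu1 was lost under library size alone, without the low-count filter, without the library block and without OE-MLKL 3. Library size alone, which moved the median of all genes to 0.19, added Atp6v0d1, Creg1, Mcoln1 and Ppt1 to the genes called. Laptm5 was not called without the block or without OE-MLKL 1, 2 or 3, nor Lipa without the block, nor Man2b1 without OE-MLKL 2.

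Against monocytes, 23 genes were higher in macrophages and none lower, against 6.86% and 6.20% of 12732 genes tested. At an unadjusted p under 0.05 no member was lower either. DESeq2 called no member lower, where it called 773 of 12732 genes lower. Lgmn led again (2.33 ± 0.13, adjusted p = 1.4e-15), followed by Cd63 (2.09 ± 0.17, adjusted p = 1.0e-11), Grn (1.72 ± 0.11, adjusted p = 7.1e-14) and Hexa (1.65 ± 0.17, adjusted p = 1.7e-09). Lamp1 was higher by 1.16 ± 0.12 and Cd68 by 0.96 ± 0.16. Atp6v1a led the pump subunits with 0.54 ± 0.17 (adjusted p = 0.026). Tfeb (-0.14 ± 0.31, adjusted p = 0.85), Lamp2 (-0.01 ± 0.14) and Atp6v0d1 (0.11 ± 0.16) did not pass. Monocytes were the smallest class, with 27 to 120 cells per library, and the macrophage markers were kept low in them by the sort itself. Fibroblast markers summed to between 57.9 and 4376 CPM in this class, highest in OE-MLKL 3, and their part was not tested. The count of 23 fell to 15 without OE-MLKL 2, to 14 with DESeq2 and to 11 without the library block. Over all genes the count higher fell from 874 of 12732 to 659 of 12473, 413 of 12732 and 291 of 11605 in turn. Leaving out OE-Vector 1 gave 16 calls, where 562 of 12195 genes were higher.

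**Figure D4:**
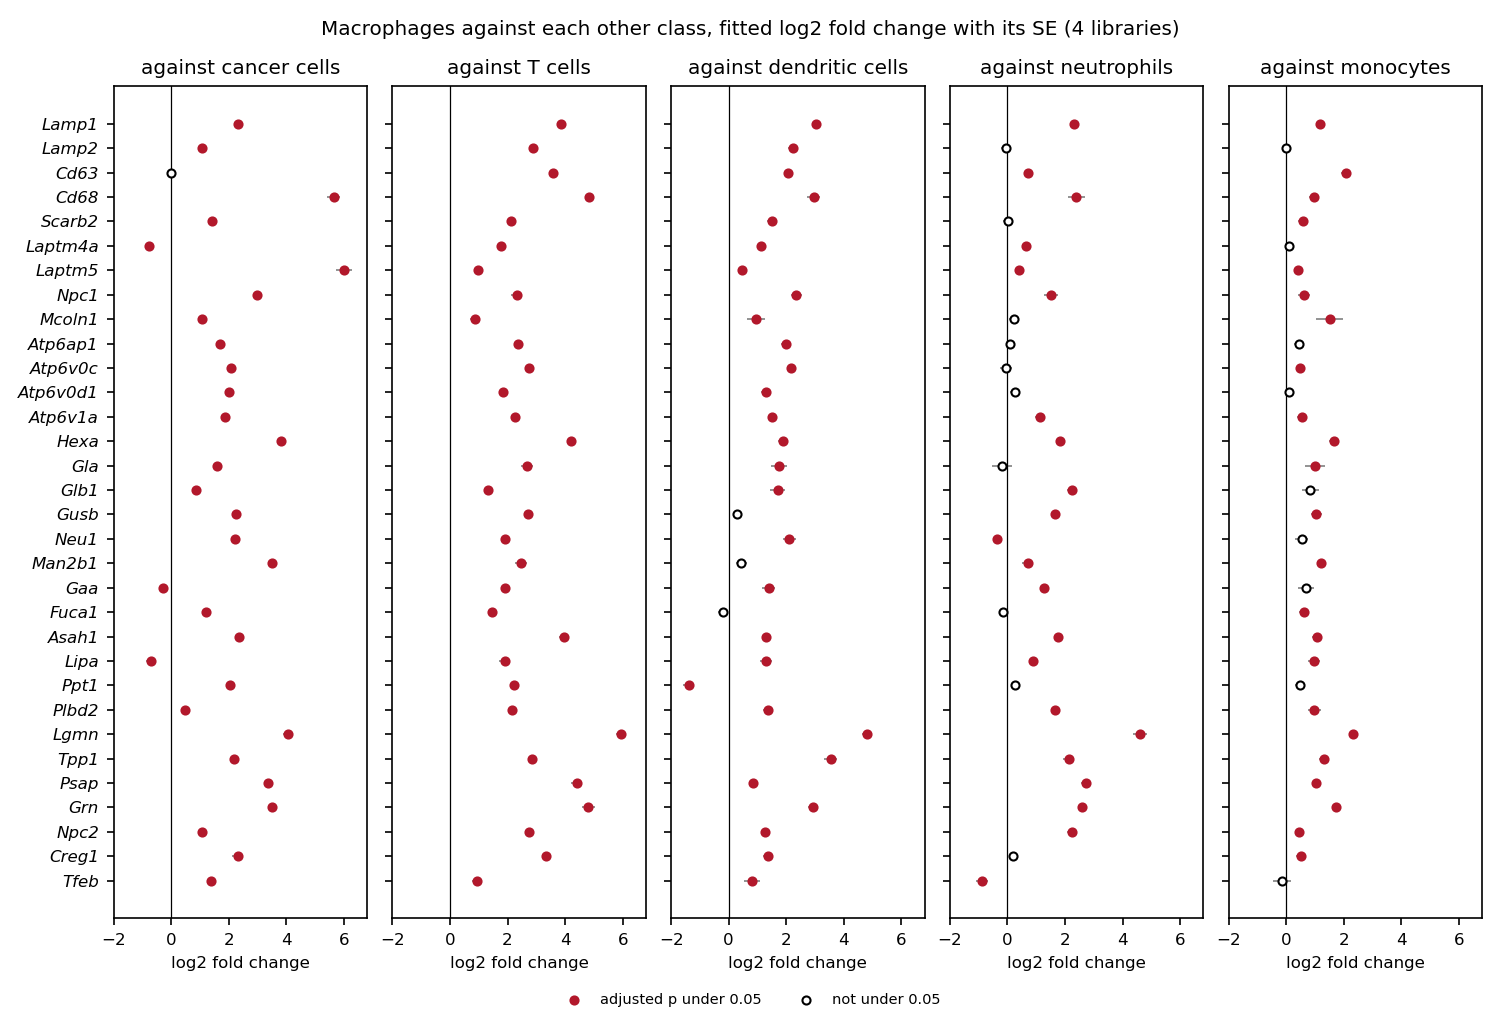
Each panel compares macrophages with 1 other class; points are fitted log2 fold changes of the 32 genes, bars their SE over 4 libraries, filled points have an adjusted p under 0.05. Lgmn lies far to the right in all 5 panels, Atp6v0c, Atp6v0d1 and Atp6ap1 lie near 0 against neutrophils, and points left of 0 that pass are Laptm4a, Gaa and Lipa against cancer cells, Ppt1 against dendritic cells, and Neu1 and Tfeb against neutrophils.

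Macrophages were further divided by Arg1, an enzyme of arginine breakdown, and by Mrc1 and F13a1. Arg1-positive cells had at least 2 UMIs of Arg1, and the other subset had none of Arg1 and at least 2 of Mrc1 and F13a1 together. These cuts are on raw UMIs, so they also depend on depth. Arg1-positive cells had medians of 9499, 5207, 5433 and 8015 UMIs per cell. The other subset had 7362.5, 3793, 4087 and 6648.5, lower in every library. The sort set the subsets apart in Arg1. Mrc1 averaged 684 CPM in Arg1-positive cells and 796 CPM in the other subset, with overlapping ranges but the lower value in Arg1-positive cells in every library. F13a1 averaged 745 and 597 CPM, with overlapping libraries. It gave 369, 836, 1080 and 694 CPM in Arg1-positive cells and 320, 609, 1109 and 349 CPM in the other subset. The 32 genes summed to 1.80% ± 0.0497 and 1.80% ± 0.0896 of UMIs (SD, n = 4), with overlapping libraries. The difference between subsets was small gene by gene too, with 3 members of 32 higher and 1 lower in Arg1-positive cells. Over all 12024 genes tested, 4.35% were higher and 2.90% lower. These 3 and 1 calls are too few to set the members apart from all genes. The median was 0.03 over the members and -0.0047 over all genes.

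Gla had the largest of these changes, 40.5, 48, 33.3 and 42.1 CPM in Arg1-positive against 21.3, 35.7, 24.9 and 27.4 CPM in the other subset, a log2 fold change of 0.63 ± 0.10 (adjusted p = 0.0021). Creg1 (0.44 ± 0.12, adjusted p = 0.037) and Cd68 (0.29 ± 0.08, adjusted p = 0.04) were the other 2 higher genes. For Creg1 the difference lay in OE-Vector 1 and OE-MLKL 3, with 377, 159, 137 and 242 CPM in Arg1-positive and 218, 147, 141 and 158 CPM in the other subset. Ppt1 fell by 0.31 ± 0.07 on the log2 scale (adjusted p = 0.017). Lamp1 (0.07 ± 0.06) and Tfeb (-0.04 ± 0.10) did not pass. None of the 4 calls held when every cell was thinned to at most 1000 UMIs, where 231 of 8810 genes were called higher and 128 lower. None held without the library block either, where 0 of 11363 genes were called higher and 0 lower. Leaving out OE-MLKL 3 left Gla as the only call. Leaving out OE-Vector 1 left Gla higher with Ppt1 and Man2b1 lower. DESeq2 called Gla and Ppt1, and the call of Ppt1 was lost without OE-MLKL 2 and that of Cd68 without OE-MLKL 1.

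The comparison of the libraries labelled OE-MLKL with the library labelled OE-Vector set 3 libraries against 1 in each class, so the fit takes the spread of OE-Vector 1 to be that of the other 3. The difference between the groups cannot be told apart from a difference between single tumours. DESeq2 called a small share of all genes in every class and subset except dendritic cells, where it called none. In macrophages no member passed the test of edgeR, where 0% of 13753 genes were called; 3 of the 32 had an unadjusted p under 0.05, against 5.96% of all genes, and DESeq2 called none of the members. The median was -0.12 over the members and 0.04 over all genes. The 3 members of smallest p were Creg1, with -1.15 ± 0.30 (adjusted p = 0.73), Hexa, with -1.16 ± 0.38 (adjusted p = 0.83), and Glb1, with -0.66 ± 0.26 (adjusted p = 0.83). Hexa had 616 CPM in OE-Vector 1 (95% Poisson interval 604 to 627, which covers counting error only) and 300.1 ± 105 CPM (SD, n = 3) in the others, which did not overlap.

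Counted by library, OE-Vector 1 lay above all 3 OE-MLKL libraries for 11 members and below all 3 for 11 in macrophages, against 18.2% and 35.5% of all genes tested. As shares of the members these are both 34.4%, so the share above exceeded the background and the share below was close to it. Highest in OE-Vector 1 were the glycosidases Hexa, Glb1, Gusb and Gaa, the hydrolases Lipa and Tpp1, the soluble Psap and Creg1, the pump subunits Atp6ap1 and Atp6v1a, and Cd63. Lowest there were the membrane proteins Lamp1, Lamp2, Laptm4a, Npc1 and Mcoln1, the glycosidases Man2b1 and Fuca1, the hydrolases Asah1, Plbd2 and Lgmn, and Grn. Man2b1 and Hexa ran in opposite orders between the libraries. Hexa was the only member with 1 order of the 4 libraries in all 6 classes, and free RNA had that order too: 159, 49.7, 64.4 and 124 CPM. Creg1 and Hexa were the only members with OE-Vector 1 highest in all 6 classes. Across libraries, 21 of the 32 genes varied by less than 1.5 times in macrophages, and 4 by 2 times or more, namely Hexa (3.06), Lipa (2.88), Creg1 (2.45) and Man2b1 (2.15).

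Fits between the labelled groups without OE-MLKL 3, here and below, set OE-MLKL 1 and 2 against OE-Vector 1. All their spread comes from OE-MLKL 1 and 2, so their SE and adjusted p rest on those 2 libraries alone. The result in macrophages depended on OE-MLKL 3. Without it, 3.22% of genes were called, and 3 members among them, each of them lower on the OE-MLKL side: Creg1 (-1.28 ± 0.28, adjusted p = 0.023), Hexa (-1.40 ± 0.31, adjusted p = 0.025) and Lipa (-1.28 ± 0.28, adjusted p = 0.023). So few calls do not set the members apart from that background. OE-MLKL 3 lay between OE-Vector 1 and the other 2 libraries for Hexa and Creg1. It also resembled OE-Vector 1 in Ptprc, a gene of all white blood cells, which had 416, 253, 283 and 551 CPM in macrophages and 213, 72.2, 90.8 and 218 CPM in free RNA. Median UMIs per macrophage were 8523, 4162, 4797 and 7063, so OE-Vector 1 and OE-MLKL 3 were also alike in depth. In neutrophils the medians were 1215, 751, 791 and 1425, and in cancer cells 25737.5, 12604, 12239 and 20801. In T cells, with 3592.5, 3319, 2574.5 and 3120, OE-MLKL 3 lay below OE-MLKL 1. The part of either likeness in the result was not tested.

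In Arg1-positive macrophages no member passed, with 0.0385% of genes called and 2 members at an unadjusted p under 0.05 against 6.71% of all genes, and none by DESeq2; the smallest p-values were those of Creg1 (-1.21 ± 0.33, adjusted p = 0.59), Hexa (-1.22 ± 0.37) and Tpp1 (-0.59 ± 0.27). Leaving out OE-MLKL 3 gave 2.32% of genes and the same 3 members as in all macrophages. Among Mrc1-F13a1 cells without Arg1, no member passed, 0% of genes were called, and 1 member had an unadjusted p under 0.05 against 4.99% of all genes, none by DESeq2. Hexa (-1.06 ± 0.38), Man2b1 (0.91 ± 0.41) and Glb1 (-0.59 ± 0.27) had the smallest p-values there, with adjusted p of at least 0.87. No member was called in that subset without OE-MLKL 3, when 0.752% of genes were.

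In neutrophils 26 of the 32 genes had a negative log2 fold change, with a median of -0.36 against 0.04 over all genes. None passed the test, where 0% of 12947 genes were called; 8 members had an unadjusted p under 0.05, against 8.36% of all genes, and DESeq2 called no member. With library size alone the median of all genes moved to 0.29 and that of the members to -0.10, with 19 of 32 negative. The smallest p-values were those of Creg1 (-1.50 ± 0.36, adjusted p = 0.55), Cd68 (-1.49 ± 0.36, adjusted p = 0.55) and Atp6v0c (-1.20 ± 0.34, adjusted p = 0.55). Cd68 gave 122, 36.1, 49.7 and 69.6 CPM, so OE-Vector 1 was highest. Free RNA held Cd68 at 117, 69, 72.9 and 95.1 CPM, in the same order of libraries and above the neutrophil level in all but OE-Vector 1; its part was not tested. OE-Vector 1 lay above all OE-MLKL libraries for 12 members and below all for 8, against 15.9% and 43.3% of genes tested.

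Without OE-MLKL 3, 9 members were called in neutrophils, all lower in the remaining OE-MLKL libraries, where 10.0% of all genes were called. They were Atp6v0c, Cd68, Creg1, Gla, Hexa, Lipa, Npc1, Scarb2 and Tpp1. Gla changed most, by -2.10 ± 0.24 (adjusted p = 0.0037), then Cd68 by -1.73 ± 0.23 (adjusted p = 0.007) and Creg1 by -1.68 ± 0.24 (adjusted p = 0.0089). Macrophage markers in the neutrophil class summed to 508, 285, 427 and 746 CPM, higher in OE-Vector 1 and OE-MLKL 3 than in OE-MLKL 1 and 2, as Cd68, Gla and Tfeb were. The part of carried-over macrophage RNA in these differences was not tested.

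In T cells no member passed (0.0259% of genes called, 3 members at an unadjusted p under 0.05 against 5.11% of all genes, none by DESeq2). Creg1 (-1.13 ± 0.30, adjusted p = 0.51), Hexa (-1.17 ± 0.35, adjusted p = 0.64) and Glb1 (-0.71 ± 0.31, adjusted p = 0.97) had the smallest p-values, and all 3 were below free RNA in this class in every library. Hexa held 40.3, 11.9, 16.5 and 26.6 CPM in T cells. OE-Vector 1 was above all OE-MLKL libraries for 10 members and below all for 3, against 19.7% and 24.4% of genes. Without OE-MLKL 3, Creg1 and Hexa were called, with 4.19% of genes.

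Cancer cells, the class said by the labels to carry the construct, had no member called either (0.00571% of genes called, 2 members at an unadjusted p under 0.05 against 4.62% of all genes, none by DESeq2). The smallest p-values were those of Hexa (-0.96 ± 0.30, adjusted p = 0.99), Tpp1 (-0.67 ± 0.26, adjusted p = 0.99) and Npc2 (-0.78 ± 0.33, adjusted p = 0.99). Npc2 gave 1142, 639, 724 and 790.3 CPM, with OE-Vector 1 above the other 3. OE-Vector 1 lay above all OE-MLKL libraries for 9 members and below all for 8, against 17.5% and 32.8% of genes. Leaving out OE-MLKL 3 called 1.33% of genes and no member.

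In monocytes 27 of the 32 genes passed the filter on low counts and none was called, with 0.228% of genes called, 1 member at an unadjusted p under 0.05 against 4.50% of all genes, and none by DESeq2. Hexa (-1.30 ± 0.45, adjusted p = 0.53), Creg1 (-0.80 ± 0.45) and Man2b1 (0.80 ± 0.49) had the smallest p-values; without OE-MLKL 3 Hexa was called, with 3.38% of genes. In dendritic cells no member was called (0.111% of genes, 2 members at an unadjusted p under 0.05 against 3.71% of all genes, none by DESeq2), and Cd68 (-1.41 ± 0.47, adjusted p = 0.6), Hexa (-0.94 ± 0.45) and Fuca1 (0.81 ± 0.46) came first. Without OE-MLKL 3 Cd68 and Hexa were called there, with 2.29% of genes.

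**Figure D5:**
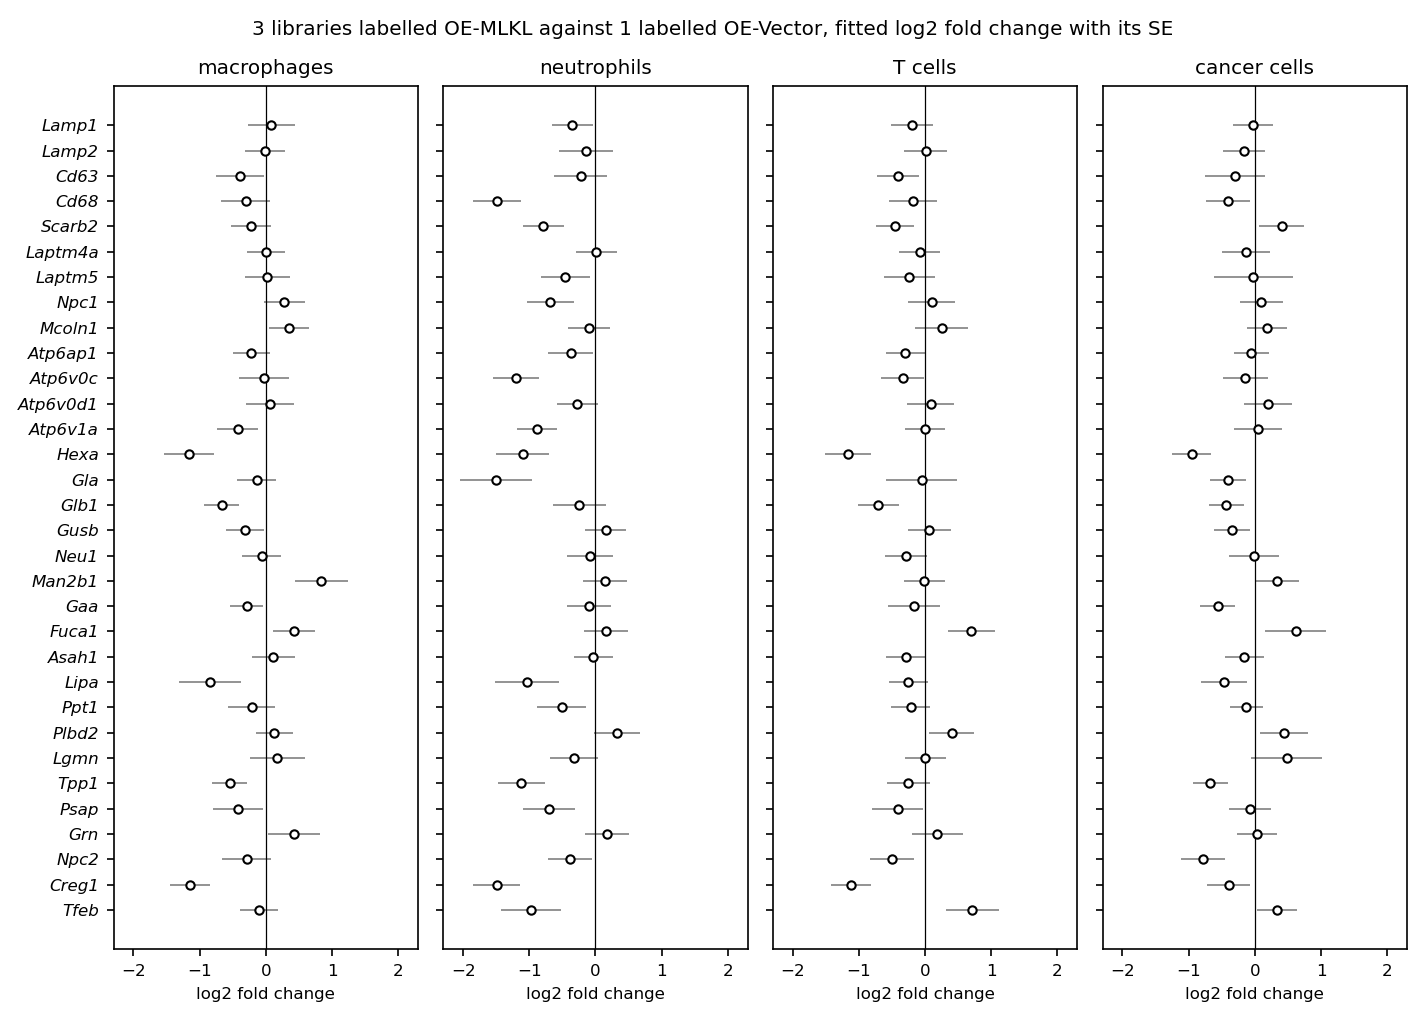
Points are fitted log2 fold changes of the 3 libraries labelled OE-MLKL against the library labelled OE-Vector for the 32 genes in 4 classes, with bars for the SE; no point has an adjusted p under 0.05. Hexa lies left of 0 in all 4 panels, Creg1 lies left in all 4 and least so in cancer cells, and 26 of the 32 points lie left of 0 in neutrophils.

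Whether the difference between the groups was itself different between classes was tested as an interaction. For both pairs of classes tested DESeq2 called a small share of all genes. Between macrophages and cancer cells no member was called (0% of genes, 1 member at an unadjusted p under 0.05 against 5.53% of all genes, none by DESeq2). Scarb2 (-0.60 ± 0.21), Man2b1 (0.51 ± 0.23) and Atp6v1a (-0.44 ± 0.22) had the smallest p-values, with adjusted p of at least 0.87. Between macrophages and neutrophils no member was called either (0.0139% of genes, 5 members at an unadjusted p under 0.05 against 7.83% of all genes, none by DESeq2). Atp6v0c came first, with a change in macrophages that was 1.12 ± 0.29 above that in neutrophils (adjusted p = 0.57), then Gla (1.43 ± 0.51) and Tfeb (0.88 ± 0.34). Without OE-MLKL 3, Creg1 was called between macrophages and cancer cells (-1.05 ± 0.21, adjusted p = 0.014), with 3.23% of genes. Between macrophages and neutrophils 7 members were then called, with 7.51% of genes, among them Gla (2.00 ± 0.27, adjusted p = 3.2e-05), Cd68 (1.63 ± 0.26, adjusted p = 2.0e-04) and Atp6v0c (1.32 ± 0.21, adjusted p = 2.1e-04). Without the filter on low counts, 3 members (Atp6v0c, Cd68 and Gla) were called between macrophages and neutrophils with all 4 libraries, where 1.19% of genes were called.

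A further 74 lysosomal genes in 5 lists (other hydrolases, other membrane proteins, other pump subunits, sorting to the lysosome, and relatives of Tfeb with the Ragulator scaffold) were counted beside the members; 73 were found. Against cancer cells, 63 of 73 tested were higher in macrophages and 6 lower, against T cells 64 and 4 of 73, and against dendritic cells 49 and 9 of 73. Over all genes tested, 32.4% were higher and 36.4% lower against cancer cells. The shares were 30.9% and 30.5% against T cells, and 20.6% and 14.1% against dendritic cells. Tfec, the relative of Tfeb found in macrophages, changed most against cancer cells (7.34 ± 0.23, adjusted p = 3.8e-07), followed by Ggh, which trims folate chains (6.18 ± 0.23). Tfec had 2405 UMIs in macrophages, 6 in T cells and 1 in dendritic cells, which is a ratio of 112 in CPM to the latter (95% counting interval 20.2 to 4443). Pla2g15, a phospholipase, was the second gene against dendritic cells (4.17 ± 0.30).

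Against neutrophils 42 of 73 were higher and 15 lower in macrophages, where 36.0% and 33.9% of 13674 genes tested were. The other pump subunits were divided there, 5 of 14 higher and 6 lower with a median of -0.25. These shares of pump subunits were not far from that background. Against cancer cells 13 of 14 were higher, where 32.4% of 16358 genes tested were. Acp5 (3.45 ± 0.19), an acid phosphatase of macrophages and osteoclasts, and Scpep1 (3.29 ± 0.17), a carboxypeptidase, led the genes higher in macrophages. Against monocytes 19 of 72 were higher and none lower, where 6.86% of genes tested were higher and 6.20% lower. In Arg1-positive against Mrc1-F13a1 cells 6 were higher and 2 lower of 72, where 4.35% of genes were higher and 2.90% lower. These subset counts are small, and the share lower was close to its background. Atp6v0d2, a pump subunit of macrophages and osteoclasts, was found at 42.8, 6.00, 10.8 and 3.75 CPM in Arg1-positive cells and at 2.61, 3.34, 1.97 and 0.972 CPM in the other subset (2.57 ± 0.36, adjusted p = 6.2e-04), the widest gap being in OE-Vector 1. It had no UMI among the 1202595 UMIs of monocytes, which allows a monocyte level of up to 2.49 CPM over the 4 libraries pooled (3 UMIs), a limit that does not hold for each library by itself. Its macrophage levels were 31.5, 4.88, 7.22 and 2.71 CPM, highest in OE-Vector 1. None of the tested genes of these lists was called between the libraries labelled OE-MLKL and OE-Vector in any of the 8 classes and subsets by edgeR.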

How the data were processed

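Droplet single-cell RNA was measured in pancreatic tumours (10x 3′ chemistry). For the 4 libraries analysed, the authors deposited a matrix of raw UMI counts with its barcodes and genes. Matrices of OE-Vector 2 and 3 were not analysed here. The file header names Cell Ranger 7.1.0, whereas the submitters' processing notes name Cell Ranger 2.1.1 and mm10; whether introns were counted is not given in the sources used here. Totals ran from 150591289 to 169978362 UMIs per library.

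Barcodes with at least 500 UMIs, more than 200 genes, at most 10% mitochondrial and at most 5% haemoglobin UMIs were kept as cells. No clustering was done. A cell entered a class by the share of its UMIs and the number of its markers, by cuts set after seeing the data; 1715 cells lay within 1.5 times of the macrophage cut, 392 of them in the class. Cells with markers of more than 1 lineage (4521, 6.06%) and ungated cells (9666, 13.0%) were left out. Doublets of like cells were not removed. Counts were summed per class and library and compared by edgeR 4.0.16 with its quasi-likelihood test (TMM, filterByExpr, Benjamini-Hochberg over all genes, threshold 0.05) in R 4.3.3, with the library as a block between classes. Residual degrees of freedom were few, so precision rests on 4 libraries. Scripts were tested on simulated data. DESeq2 1.42.0, library size alone, other cell filters and gates, thinning, shared barcodes, the block and each library left out were alternatives.

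Members and lists were chosen with earlier results of these data known. Named with a fold change were the gene of largest change per role, the 3 of smallest p between the labelled groups, Lamp1, Cd68 and Tfeb. Other genes named with a fold change, including those lower in macrophages and those called without OE-MLKL 3, were named after their values were seen.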

Additional observations from a re-analysis of the deposited data

How the results depend on the processing

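No paired analysis was possible because only 1 OE-Vector matrix was analysed, so the labelled groups share 1 replicate number. Between the labelled groups, leaving out 1 library gave 0 to 3 members called in macrophages and in Arg1-positive macrophages, 0 to 1 in monocytes, 0 to 2 in dendritic cells, 0 to 9 in neutrophils and 0 to 2 in T cells. For the differences of effect between classes it gave 0 to 1 with cancer cells and 0 to 7 with neutrophils, and 3 for the latter without the low-count filter, when 1.19% of all genes were called. In each of these the highest value came without OE-MLKL 3, in fits whose spread comes from OE-MLKL 1 and 2 alone. Members lower in macrophages than in cancer cells numbered 1 without the library block. Those lower than in neutrophils numbered 1 with library size alone, without the low-count filter or without the block, and 1 to 2 with a library left out. Members higher than in monocytes numbered 14 with DESeq2 and with library size alone, 15 in thinned cells and 11 without the block. They numbered 15 to 19 with a library left out. Over all genes, 413 of 12732 were higher with DESeq2 and 655 of 12732 with library size alone. In thinned cells 389 of 9187 were higher, and without the block 291 of 11605. Between the macrophage subsets, those higher numbered 1 with DESeq2 and library size alone, 0 in thinned cells and without the block, and 1 to 3 with a library left out. Those lower numbered 2 with library size alone, 0 in thinned cells and without the block, and 0 to 2 with a library left out. Over all genes, 231 of 8810 were higher and 128 lower in thinned cells. Without the block, 0 of 11363 genes were higher and 0 lower. The log2 fold change of Hexa in dendritic cells turned to 0.18 in thinned cells. That of Tfeb against monocytes ran from -0.25 without OE-MLKL 3 to 0.017 without OE-MLKL 2. Between the subsets, Lamp1 became -0.000668 in thinned cells, and Tfeb ran from -0.081 without OE-MLKL 2 to 0.020 without OE-Vector 1. The cause was not tested for any of these. For the 73 single-gene fold changes, 762 of 815 alternative values kept their direction and side of the threshold, 32 lost and 17 gained a call, and 4 turned. Monocytes and dendritic cells numbered 27 to 120 and 30 to 155 per library, which limits precision in both.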
